A study of Homo sapiens with 21 samples.

Results

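The expression of 3 genes was followed, CXCR4, ACKR3 and CXCL12, of 57820 genes counted in RNA-seq libraries of A673, a human Ewing sarcoma line in long use whose driver is the EWS/FLI fusion. CXCR4 was picked on measured values, because it was lower with the endogenous fusion than after its depletion and higher with several altered fusions than after depletion. ACKR3, named CXCR7 in older annotations, and CXCL12 were added as the other receptor and the ligand of the same axis. The 21 libraries formed 7 groups of 3. In iLuc, cells received a control shRNA against luciferase and an empty vector, and kept their endogenous fusion. In the other 6 groups an shRNA (iEF) against the 3′ end of the endogenous EWS/FLI transcript was given, followed by an empty vector (the iEF group) or by a cDNA that the shRNA does not recognise. The cDNAs were full-length EWS/FLI (WT-EF), a form with a large internal deletion in EWS (mut9), a form in which tyrosines of the EWS repeats are alanines (DAF), the same exchange made in mut9 (DAF-mut9), and a form that lacks nearly all of EWS (del22, or delta22). Every cDNA was FLAG-tagged, delivered by retrovirus, and kept the DNA-binding ETS domain of FLI. All groups went through puromycin (2 µg/ml) and hygromycin (400 µg/ml) selection and were collected on day 16. Columns with the name mut9d were taken to be the DAF-mut9 samples, because every other group had columns of its own, and every DAF-mut9 value rests on that. A673 is 1 cell line, chosen by the study because it keeps growing after depletion. The study describes its replicates as repeated depletion and rescue experiments. The p-values therefore hold for that line only. They measure the spread that is left once differences shared by a whole repeat are removed.

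CXCL12 is a secreted chemokine that guides the movement and homing of cells. CXCR4 is its signalling receptor, which couples to inhibitory G proteins and is widely linked to metastasis and, in Ewing sarcoma, to migration and invasion. ACKR3 binds the same ligand without classical G protein signalling, recruits arrestin and removes CXCL12 from the surroundings. CXCL11 is a further ligand of ACKR3. EWS/FLI binds DNA through the ETS domain, whose core motif is GGAA, and joins it to the low-complexity EWS domain.

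On GRCh37, CXCR4 (ENSG00000121966) lies on the minus strand at chr2:136871919-136876747 and has 2902 exonic bases. ACKR3 (ENSG00000144476) lies on the plus strand of the same chromosome at chr2:237476430-237490997 with 2070 exonic bases. CXCL12 (ENSG00000107562) lies on the minus strand at chr10:44865613-44881941 with 6143 exonic bases. All 3 are protein-coding and share no exonic base with another annotated gene. The sequences just before the start sites are shown because GGAA is the motif core of the factor that was varied. RefSeq (GRCh38.p14) gave promoters for 2 of the 3 genes, those of CXCR4, with 3 entries of which the first is printed, and of CXCL12. The 250 bases upstream are written 5′ to 3′ on the gene's strand, with GGAA and its complement TTCC in capitals, for CXCR4 at chr2:136118150-136118399 and for CXCL12 at chr10:44385098-44385347, both on the minus strand.
CXCR4: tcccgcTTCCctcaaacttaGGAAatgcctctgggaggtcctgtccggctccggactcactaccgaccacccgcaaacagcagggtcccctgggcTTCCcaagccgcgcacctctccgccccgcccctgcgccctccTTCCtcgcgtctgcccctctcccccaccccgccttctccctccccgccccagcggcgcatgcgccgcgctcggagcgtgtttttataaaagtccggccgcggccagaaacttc
CXCL12: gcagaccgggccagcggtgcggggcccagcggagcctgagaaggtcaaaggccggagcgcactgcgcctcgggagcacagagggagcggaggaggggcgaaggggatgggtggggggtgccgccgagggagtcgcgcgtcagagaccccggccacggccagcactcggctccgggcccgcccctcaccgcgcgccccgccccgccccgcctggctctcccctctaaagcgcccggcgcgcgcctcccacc
The printed CXCR4 window held GGAA at 4 places, 1 on the gene's strand and 3 on the other, while the second entry held none and the last entry 4. The CXCL12 window held none. GGAA on either strand was present in 92.7% of 35116 promoter windows of the same length, so its presence is common. Neither printed window held the longer form ACNGGAA on either strand, found in 13.6% of all windows, or the repeat GGAAGGAA, found in 3.06%; these longer strings contain GGAA and overlap its matches. A match describes letters in a window and not binding.

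Library totals ranged from 32.9 to 46.2 M counts (M for 1e6), and levels are given as CPM, counts per 1e6 after TMM scaling, where 1 CPM stood for 32 to 45.2 counts. FLI1, whose exons are part of the fusion and of every cDNA, was at 60.6 to 89 CPM in iLuc and 20 to 21.1 in iEF, a log2 fold change of 1.75 (edgeR adjusted p = 1.33e-09), and at 21.9 to 62 CPM in the 5 rescue groups. With WT-EF it was not called above iEF (0.24, adjusted p = 0.196), while mut9 (0.57), DAF (0.84), DAF-mut9 (0.81) and del22 (1.25) were called, and mut9 against WT-EF was at 0.33 (adjusted p = 0.17). These counts cover the whole FLI1 gene, with the untranslated 3′ end that the shRNA targets. They are RNA and do not measure how much protein each cDNA gave. For protein, the study showed western blots of the tagged constructs. Of 6 Ewing sarcoma markers, 4 were above a mean of 1 CPM in iEF and 5 in each other group. CD99 was near 0 in all groups and is uncertain, since it lies in a region shared by the sex chromosomes where reads are not placed uniquely. Leukocyte markers, which matter because leukocytes carry CXCR4, summed to 1.18 to 4.69 CPM over 8 genes in the 20 libraries other than iEF replicate 3, where the sum was 26.5, of which 25 was ITGAM. PTPRC, which defines leukocytes, never passed 0.871 CPM, CD3E and CD3D never passed 0.0549, and SPI1 never passed 0.216. CD14, a monocyte marker, followed a pattern near that of CXCR4, with means of 0.0569 CPM in iLuc, 0.477 in WT-EF, 0.699 in iEF, 1.28 in del22, 1.52 in DAF-mut9, 1.66 in mut9 and 2.93 in DAF. Endothelial markers (6 of 7 matched in the table, PECAM1 not among them) summed to 9.48 to 61.1 CPM, nearly all KDR and EMCN, while CDH5 stayed at or below 1.02 and TEK at or below 0.125. KDR was also lowest in iLuc (0.707 CPM) and then ran through WT-EF (10.2), iEF (15.5), DAF (20.5), mut9 (23.1) and del22 (33.6) to DAF-mut9 (34.4), whereas EMCN was highest in iLuc (22.7) and lowest in iEF (2.22), with 13 to 17.7 CPM in the other groups. Their part in the results was not tested.

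CXCR4, the signalling receptor, spanned a wide range. It was lowest in iLuc, at 0.642, 0.906 and 0.802 CPM in replicates 1 to 3. After depletion (iEF) it was at 5.18, 2.57 and 5.46 CPM. With WT-EF it was at 3.36, 4.21 and 4.89 CPM. No iLuc library reached any iEF or WT-EF library, while the iEF and WT-EF ranges overlapped, with the lowest of these 6 libraries in iEF. With mut9, CXCR4 was at 10.3, 21.8 and 19.3 CPM, above every iEF and WT-EF library. With DAF it was at 22.6, 70.6 and 48.1 CPM, and with DAF-mut9 at 24.2, 49.6 and 37.8 CPM. With del22 it was at 8.72, 43 and 60.9 CPM, a 6.99-fold spread within the group. All DAF and DAF-mut9 libraries lay above all mut9 libraries, while del22 replicate 1 lay below them. In order, the means rose from iLuc (0.783 ± 0.133 CPM, SD, n = 3) through WT-EF (4.15 ± 0.764), iEF (4.4 ± 1.6), mut9 (17.1 ± 6.03), DAF-mut9 (37.2 ± 12.7) and del22 (37.6 ± 26.5) to DAF (47.1 ± 24). The ranges of WT-EF and iEF overlapped, as did those of DAF-mut9, del22 and DAF. With n = 3 per group, overlap does not show that groups are alike. In bulk RNA, more expressing cells and more RNA per cell cannot be told apart.

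**Figure D1:**
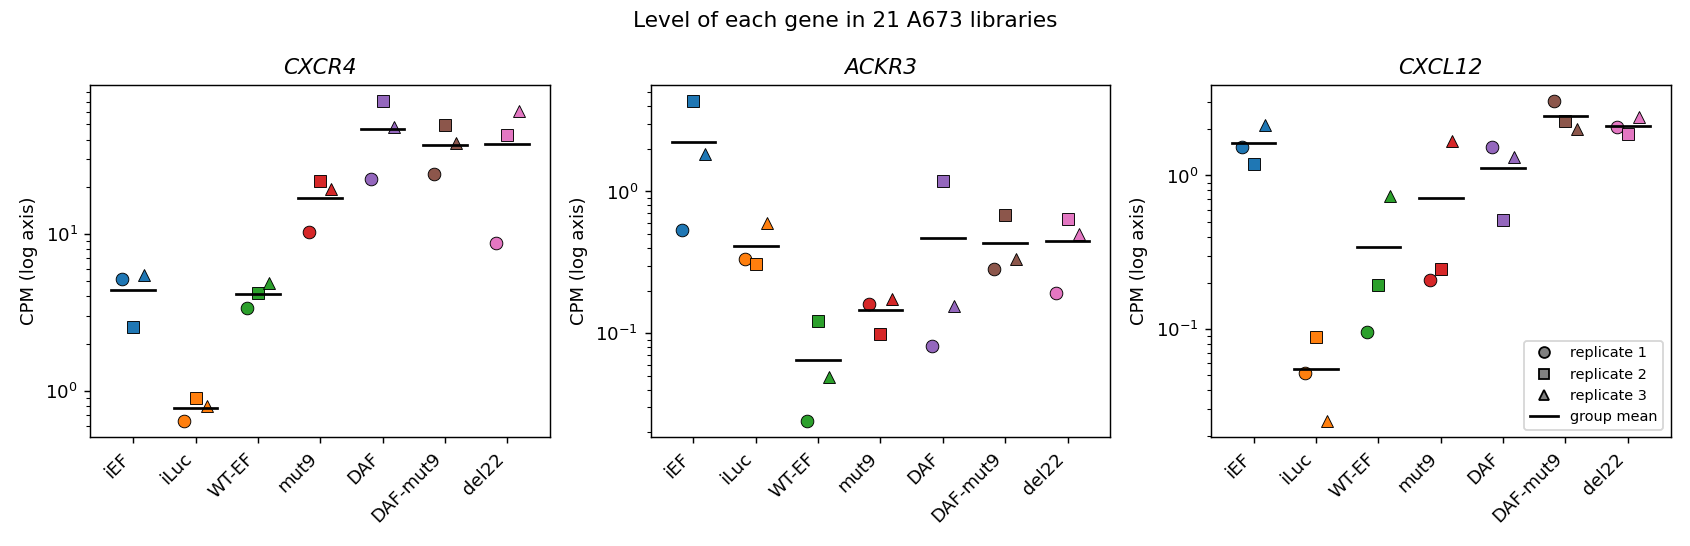
Level of CXCR4, ACKR3 and CXCL12 (CPM, log axis) in each of 21 libraries by group; symbols mark replicates 1 to 3 and bars the group mean of 3. CXCR4 is highest in DAF, DAF-mut9 and del22, ACKR3 in iEF, and CXCL12 in DAF-mut9 and del22, with iLuc lowest for CXCR4 and CXCL12 and WT-EF lowest for ACKR3.

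The contrasts of iLuc, DAF, DAF-mut9 and del22 with iEF chose CXCR4, and those of WT-EF and mut9 rest on the same iEF libraries, so all 6 log2 fold changes are given as a description with no test. They were -2.62 for iLuc, 3.21 for DAF, 2.93 for DAF-mut9 and 2.79 for del22, in comparisons in which 22.4% of 30549 tested genes were called lower in iLuc and 3.41%, 1.26% and 0.881% were called higher in the other 3, shares from which nothing is read here. WT-EF differed from iEF by -0.19, with set differences of -0.62, 0.7 and -0.16, and without iEF replicate 1 the sign turned to 0.43. With mut9 the difference was 1.79, with set differences of 0.99, 3.06 and 1.81, and it was 2.41 without iEF replicate 1; 6.22% of genes were called higher in that comparison. The comparison of mut9 with WT-EF sets against each other 2 groups that took no part in the choice. It asks whether CXCR4 differs between these 2 cDNAs. FLI1 was also 0.33 higher with mut9 (interval 0.05 to 0.6, edgeR adjusted p = 0.17). The EWS deletion and the amount of cDNA therefore cannot be told apart here. CXCR4 was 3.96-fold higher with mut9 (log2 1.99 ± 0.39, interval 1.17 to 2.8, adjusted p = 0.00325), with set differences of 1.6, 2.36 and 1.97 and no overlap, in a comparison in which 4.95% of genes were called higher. The fit takes its spread from all 21 libraries; with only the mut9 and WT-EF libraries the value was 1.96 (adjusted p = 8.03e-09). The call held under all 28 alternative settings, at 1.47 to 2.15 with adjusted p up to 0.0419. The smallest adjusted p, 1.77e-27, came from edgeR with no low-count filter at a near equal value (1.95). Neither this value nor the edgeR adjusted p of 8.03e-09 from the mut9 and WT-EF libraries alone is read as added support.

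**Figure D2:**
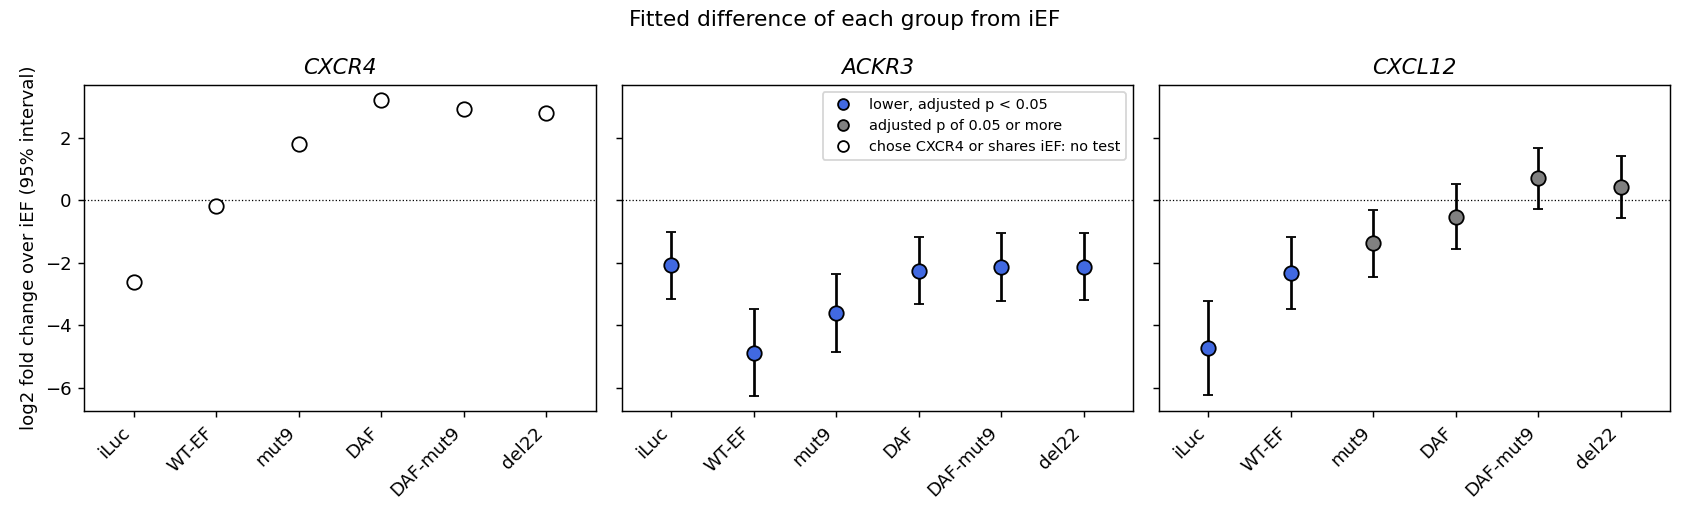
Fitted log2 fold change of each group over iEF for CXCR4, ACKR3 and CXCL12, with 95% intervals for the latter pair; fill marks the call at adjusted p below 0.05, and the open circles of CXCR4 are contrasts that chose it or share the iEF libraries, and were not tested. ACKR3 lies below 0 in all 6 groups, while CXCL12 runs from -4.73 in iLuc to 0.69 in DAF-mut9.

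ACKR3, the scavenging receptor, had its highest mean in the depleted cells. In iEF it was at 0.537, 4.35 and 1.84 CPM (23, 139 and 68 counts), an uneven group with a low replicate 1. In iLuc it was at 0.334, 0.309 and 0.601 CPM. With WT-EF it was at 0.024, 0.121 and 0.0491 CPM, which were 1, 5 and 2 counts. ACKR3 was thus close to the limit of detection with the full-length cDNA, below every library of iLuc and iEF. With mut9 it was at 0.162, 0.0982 and 0.174 CPM (7, 4 and 6 counts), also below every iEF and iLuc library. With DAF it was at 0.0819, 1.18 and 0.156 CPM, where replicate 2 alone stood above 1. DAF-mut9 gave 0.282, 0.686 and 0.335 CPM and del22 0.192, 0.642 and 0.505 CPM, both overlapping with iLuc and with iEF replicate 1. From low to high the means were 0.0647 ± 0.0503 CPM in WT-EF, 0.145 ± 0.0409 in mut9, 0.415 ± 0.162 in iLuc, 0.434 ± 0.219 in DAF-mut9, 0.446 ± 0.231 in del22, 0.471 ± 0.611 in DAF and 2.24 ± 1.94 in iEF (SD, n = 3 each). Neighbours in this order overlapped except mut9 and iLuc.

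Against iEF, ACKR3 fell in all 6 groups, in 3 of 3 sets each, in comparisons in which 22.4% (iLuc), 16.9% (WT-EF), 8.33% (mut9), 4.02% (DAF), 2.14% (DAF-mut9) and 1.79% (del22) of tested genes were called lower. All 6 contrasts share the 3 iEF libraries and so are not independent. The change was largest in WT-EF, at -4.89 ± 0.67 (adjusted p = 9.25e-06), and in mut9, at -3.61 ± 0.60 (adjusted p = 0.000219). These were the groups whose ranges did not overlap with iEF. Summed over replicates, ACKR3 was 31.8-fold below iEF with WT-EF (8 against 230 counts; 95% exact interval 15.9 to 74.5) and 14.3-fold below with mut9 (17 counts; 8.75 to 25), intervals that cover counting error only. Endogenous EWS/FLI gave -2.09 ± 0.52 (adjusted p = 0.00264). These 3 calls kept their direction and side of the threshold under all 27 alternatives that could be run, but iLuc was at -1.41 without iLuc replicate 2, and mut9 at -4.23 and -2.86 without mut9 replicate 1 and 2. The altered forms gave -2.26 ± 0.52 for DAF (adjusted p = 0.00876), -2.15 ± 0.52 for DAF-mut9 (adjusted p = 0.024) and -2.13 ± 0.51 for del22 (adjusted p = 0.0277). These last 3 were lost without the replicate block (adjusted p = 0.0637, 0.0837 and 0.103) and without iEF replicate 2 (-1.79, -1.72 and -1.71; adjusted p = 0.0809, 0.117 and 0.124). The DAF call was also lost without DAF replicate 1 (adjusted p = 0.0511) or 3 (0.0641), and the value was -3.65 without DAF replicate 2. The DAF-mut9 call was lost without iEF replicate 3 (adjusted p = 0.0806) or without DAF-mut9 replicate 1, 2 or 3 (0.0653, 0.146 and 0.133). The del22 call was lost without iEF replicate 3 (adjusted p = 0.09) or without del22 replicate 1, 2 or 3 (0.0868, 0.153 and 0.109). Within iEF, the library with the most ACKR3, replicate 2, also had the least CXCR4 and the smallest endothelial marker sum (9.48 CPM against 28.1 and 21.7); their part in the result was not tested.

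Direct comparisons asked whether the forms differ from each other. FLI1 was itself lower with WT-EF than in iLuc (-1.51, edgeR adjusted p = 7.36e-08) and higher with DAF than with WT-EF (0.6, 0.00173). The form of the fusion and its amount therefore cannot be told apart in these comparisons. ACKR3 was lower with WT-EF than with the endogenous fusion, by -2.80 ± 0.75 (adjusted p = 0.0117; 8.52% of genes called lower), a call lost without the replicate block (-2.62, adjusted p = 0.074), without iLuc replicate 3 (-2.36, 0.0546) and without WT-EF replicate 2 or 3 (-3.02 and -2.68; 0.0518 and 0.0546), and at -3.49 without iLuc replicate 2. DAF was above WT-EF by 2.64 ± 0.76 (adjusted p = 0.0138; 14.3% of genes called higher), but this rested on DAF replicate 2, without which the difference was 1.23 (adjusted p = 0.412), and it was also lost without WT-EF replicate 2 or 3 (adjusted p = 0.0651 and 0.055). The interval for mut9 against WT-EF ran from -0.56 to 3.12 (adjusted p = 0.51), and that for DAF against mut9 from -0.05 to 2.76 (adjusted p = 0.285). For DAF-mut9 against mut9 the difference was 1.46 (0.07 to 2.86, adjusted p = 0.211), with no overlap of the 2 groups. DAF and DAF-mut9 differed from del22 by -0.12 (-1.31 to 1.06) and -0.01 (-1.22 to 1.19), intervals that leave room for more than a 2-fold difference either way.

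CXCL12, the ligand, was a rare transcript in every group. In iLuc it was at 0.0514, 0.0884 and 0.0251 CPM, which were 2, 4 and 1 counts. In iEF it was at 1.54, 1.19 and 2.13 CPM (66, 38 and 79 counts). Every iEF library was thus above every iLuc library by more than an order of magnitude. With WT-EF it was at 0.0961, 0.194 and 0.737 CPM and with mut9 at 0.208, 0.245 and 1.69 CPM, replicate 3 being the high library in both groups. With DAF it was at 1.53, 0.512 and 1.31 CPM, overlapping with iEF. DAF-mut9 (3.06, 2.25 and 2.01 CPM) and del22 (2.06, 1.86 and 2.4 CPM) had higher means than iEF, overlapped with it, and spread least in proportion to their means. The means ran from 0.0549 ± 0.0318 CPM in iLuc through 0.342 ± 0.345 in WT-EF, 0.713 ± 0.843 in mut9, 1.12 ± 0.535 in DAF, 1.62 ± 0.478 in iEF and 2.1 ± 0.274 in del22 to 2.44 ± 0.548 in DAF-mut9 (SD, n = 3 each). Each neighbouring pair in this order overlapped except iLuc and WT-EF.

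CXCL12 fell with the endogenous fusion by -4.73 ± 0.73 against iEF (adjusted p = 1.89e-05) and with WT-EF by -2.33 ± 0.55 (adjusted p = 0.00291), each in 3 of 3 sets and without overlap. Both stayed past the threshold under all 28 alternatives, but with smaller values on the ComBat-adjusted scale (-1.14 and -0.83), with -5.52 and -4.11 for iLuc without its replicate 2 and 3, and with -3.18 for WT-EF without its replicate 3. Summed counts were 7 in iLuc against 183 in iEF, 29-fold below (95% exact interval 13.8 to 73.2). The ligand and CXCR4 were both lowest where the endogenous fusion was present. With WT-EF, CXCR4 overlapped with iEF while CXCL12 did not, and whether the 2 genes differed in this was not tested. With mut9, CXCL12 was at -1.39 ± 0.52 (adjusted p = 0.0812). Without mut9 replicate 3 the value was -2.63 (adjusted p = 0.00316), and it was also past the threshold with DESeq2 (-1.49, adjusted p = 0.0421), with no low-count filter (-1.4, 0.000186) and with only the compared groups (-1.66, 0.0482). The remaining forms gave no call, at -0.53 (interval -1.57 to 0.5, adjusted p = 0.64) for DAF, 0.69 (-0.29 to 1.68, 0.558) for DAF-mut9 and 0.42 (-0.56 to 1.41, 0.78) for del22.

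In direct comparisons, CXCL12 was higher with DAF-mut9 than with mut9 by 2.08 ± 0.52 (adjusted p = 0.011; 5.15% of genes called higher), with no overlap, although set 3 differed by only 0.25. This call was lost without the replicate block (1.81, adjusted p = 0.0652), without mut9 replicate 1 or 2 (1.6 and 1.79; 0.0827 and 0.0783) and without DAF-mut9 replicate 1 or 2 (1.82 and 1.9; 0.0628 and 0.0568), and the value was 3.28 without mut9 replicate 3 and 0.96 on ComBat-adjusted values. It was higher with DAF than with WT-EF by 1.80 ± 0.57 (adjusted p = 0.0242), a call lost without the block (1.71, adjusted p = 0.0634), on ComBat-adjusted values (0.53, 0.0681), without WT-EF replicate 1 or 2 (1.33 and 1.71; 0.137 and 0.083) and without DAF replicate 1 (1.34, 0.146), and at 2.64 without WT-EF replicate 3. WT-EF stood above iLuc by 2.40 ± 0.85 (adjusted p = 0.0567), 0.0141 with DESeq2 and under the threshold in 8 of 28 alternatives. FLI1 was 0.24 higher with DAF-mut9 than with mut9 (edgeR adjusted p = 0.317). It was 0.6 higher with DAF than with WT-EF, and WT-EF differed from iLuc by -1.51, both called. Form and amount of the fusion cannot be told apart in these comparisons. The differences of mut9 from WT-EF (0.95, -0.28 to 2.17, adjusted p = 0.446), DAF from mut9 (0.86, -0.25 to 1.97, 0.422), DAF from del22 (-0.96, -1.98 to 0.06, 0.642) and DAF-mut9 from del22 (0.27, -0.69 to 1.23, 1) were not called. Without mut9 replicate 3 the first became -0.35 (adjusted p = 0.889) and the second was called, at 2.09 (adjusted p = 0.0347).

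Levels of the 3 genes were compared per kilobase of exon (CPM per exonic kb). CXCR4 was the most abundant by group mean throughout, from 0.27 ± 0.0458 in iLuc to 16.2 ± 8.28 in DAF. ACKR3 ran from 0.0313 ± 0.0243 in WT-EF to 1.08 ± 0.936 in iEF, and CXCL12 from 0.00894 ± 0.00518 in iLuc to 0.397 ± 0.0892 in DAF-mut9. The ratio of CXCR4 to ACKR3 in iEF was 6.88, 0.421 and 2.12, and in iLuc 1.37, 2.09 and 0.951, and ACKR3 exceeded CXCR4 in 1 library of each group. With a cDNA the ratio was at least 24.8 in each of the 15 libraries and reached 219 in DAF replicate 3. The highest ratios rest on few ACKR3 counts and are imprecise. These were 5 counts in DAF replicate 3, 3 in DAF replicate 1, 4 in mut9 replicate 2 and 1 in WT-EF replicate 1. In WT-EF the ratios of 99.9, 24.8 and 71 came from low ACKR3 at a CXCR4 level like that of iEF. In mut9 (45.4, 158 and 78.7), DAF (197, 42.9 and 219), DAF-mut9 (61.2, 51.6 and 80.5) and del22 (32.4, 47.8 and 86.1), CXCR4 was also above iEF. The ratio uses CXCR4, which was chosen on these values, and carries no test.

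**Figure D3:**
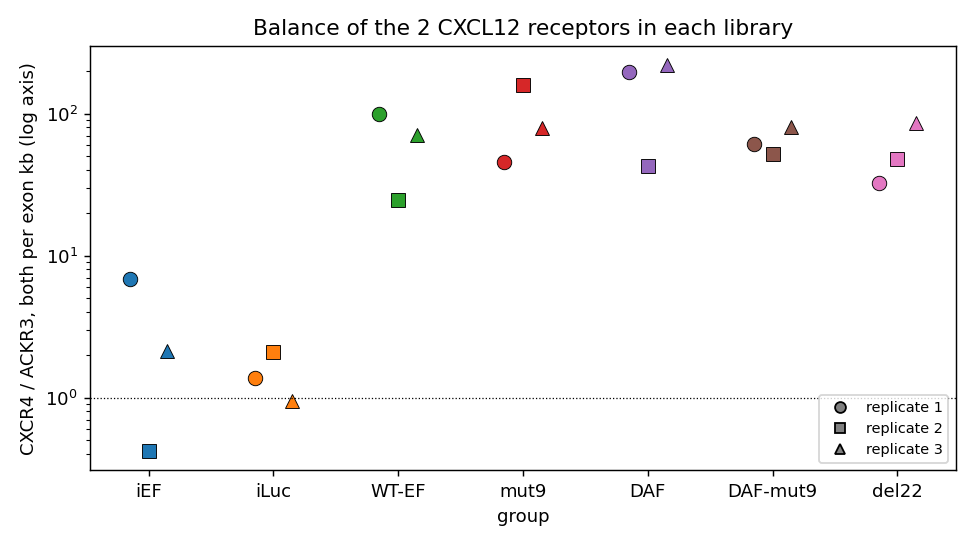
Ratio of CXCR4 to ACKR3, both per exonic kilobase (log axis), in each library by group; symbols mark replicates 1 to 3 and the dotted line is equal level. The 6 iEF and iLuc libraries lie between 0.421 and 6.88, and the 15 libraries with a cDNA between 24.8 and 219. The highest ratios rest on few ACKR3 counts, such as 5 in DAF replicate 3.

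The list of other axis genes held 66, grouped by role, of which 64 could be tested (CTSG and ELANE, proteases that cleave CXCL12, had too few counts). Of these 64, 15 rose and 33 fell in iLuc against iEF, 75% against 41.1% of all tested genes. With WT-EF 10 rose and 26 fell (56.2% against 28.3%), with mut9 11 and 14 (39.1% against 14.6%), with DAF 12 and 3 (23.4% against 7.42%), with DAF-mut9 4 and 2 (9.38% against 3.4%) and with del22 2 and 1 (4.69% against 2.67%). Most of the list is well expressed, and among the 49 genes with a mean of at least 5 CPM the shares were 79.6%, 63.3%, 40.8%, 24.5%, 10.2% and 6.12%, beside 60.3%, 44.3%, 21.9%, 12.1%, 5.24% and 4.08% of the 10779 such genes. The list's median log2 fold change was -0.33 in iLuc, -0.24 in WT-EF, -0.01 in mut9, 0.08 in DAF, 0.11 in DAF-mut9 and 0.1 in del22, with medians over all tested genes between -0.03 and 0.02.

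**Figure D4:**
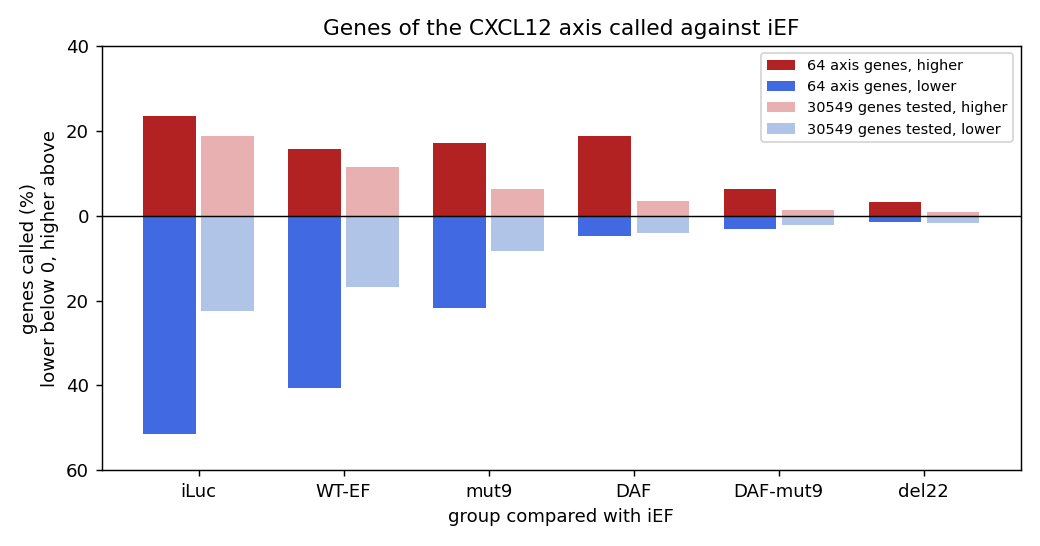
Percentage of the 64 other axis genes (dark bars) and of all 30549 tested genes (light bars) called against iEF, higher above 0 and lower below, for each group. Calls among axis genes go from 15 higher and 33 lower in iLuc to 2 higher and 1 lower in del22.

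Among the other ligands, CXCL11, which also binds ACKR3, was at 9.55 ± 5.16 CPM in iEF (SD, n = 3) and 0.874 ± 0.578 in iLuc, a log2 fold change of -3.42 (adjusted p = 0.000192). It was also lower with WT-EF (-3.74, adjusted p = 0.000172) and gave no call with mut9 (-0.44), DAF (0.58), DAF-mut9 (-0.19) or del22 (-0.68). ADM, which encodes adrenomedullin, a peptide that ACKR3 can take up, fell from 93.4 ± 30.7 CPM in iEF to 6.79 ± 3.52 in iLuc (-3.78, adjusted p = 1.4e-09), 19.4 ± 4.41 in WT-EF (-2.23, 2.18e-06) and 40.8 ± 3.05 in mut9 (-1.17, 0.00372). MIF, a ligand of CXCR4 and CD74, had at most 6 counts in a library and shares exonic bases with other genes, so its values are uncertain. CXCR3, the classical receptor of CXCL11, had at most 8 counts in a library and no call. CD74, a receptor of MIF that can pair with CXCR4, was at 2.2 ± 1.55 CPM in iEF and fell in iLuc (-1.7, adjusted p = 0.00686) and WT-EF (-1.66, 0.0126). It rose with DAF to 6.73 ± 2.99 CPM (1.71, adjusted p = 0.0153) and with DAF-mut9 to 6.36 ± 2.79 (1.65, 0.0346), with no call for mut9 (-1.19, 0.104) or del22 (1, 0.277).

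Among 21 G protein subunits and first effectors, 5 rose and 14 fell in iLuc, 5 and 9 in WT-EF, 3 and 3 in mut9, 4 and 1 in DAF, and 1 fell in DAF-mut9 and in del22. As shares of the 21 these were 90.5%, 66.7%, 28.6%, 23.8%, 4.76% and 4.76%, beside 41.1%, 28.3%, 14.6%, 7.42%, 3.4% and 2.67% of all tested genes, so that the last 2 lay near the background. Of genes with a mean of at least 5 CPM, 60.3%, 44.3%, 21.9%, 12.1%, 5.24% and 4.08% were called. VAV1, a guanine nucleotide exchange factor, rose from 5.51 ± 2.69 CPM in iEF to 83.6 ± 22.4 in iLuc (3.96, adjusted p = 5.28e-10), and by 2.34 with WT-EF, 2.64 with mut9 and 1.69 with DAF. With DAF-mut9 (0.15) and del22 (0.05) it was not called. PIK3CG, the catalytic subunit of the PI3-kinase downstream of G protein βγ, rose in iLuc (2.04), WT-EF (1.16), mut9 (0.62, adjusted p = 0.0398) and DAF (0.85), and was at 0.67 in DAF-mut9 (adjusted p = 0.0692) and 0.41 in del22 (0.353). GNG2, a G protein γ subunit, fell in iLuc (-2.64, adjusted p = 2.2e-10) and was at -0.37 in WT-EF (adjusted p = 0.111) and -0.38 in mut9 (0.146). DOCK2, a Rac activator, was lower in all 6 groups, from -0.72 in del22 (adjusted p = 0.0165) to -1.4 in iLuc.

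Among 22 genes of receptor desensitization and trafficking, 7 rose and 6 fell in iLuc, 5 and 5 in WT-EF, 5 and 3 in mut9, 4 and 1 in DAF, and 2 rose in DAF-mut9 and in del22. The shares were 59.1%, 45.5%, 36.4%, 22.7%, 9.09% and 9.09%, beside the same 41.1%, 28.3%, 14.6%, 7.42%, 3.4% and 2.67% of all tested genes. Of genes with a mean of at least 5 CPM, 60.3%, 44.3%, 21.9%, 12.1%, 5.24% and 4.08% were called. The shares in iLuc and WT-EF thus lay near those of well expressed genes. ARRB2, the β-arrestin that both receptors recruit, rose in iLuc (1.63, adjusted p = 5.18e-07), WT-EF (1.4) and mut9 (1), from 7.44 ± 2.01 CPM in iEF to 22.9 ± 3.58 in iLuc. ARRB1, the other β-arrestin, named after its values were seen, fell in iLuc (-0.5, adjusted p = 0.00436) and rose in the other 5 groups (0.51 in WT-EF, 1.02 in mut9, 1.3 in DAF, 0.72 in DAF-mut9 and 0.63 in del22). Of its 9888 exonic bases, 2338 are shared with other genes on its strand and 722 lie opposite antisense genes. GRK5, a receptor kinase, rose in those 3 groups and in DAF, by 0.75, 0.87, 1.32 and 1.07. RGS3, which speeds GTP hydrolysis by Gα, fell in iLuc (-1.8), WT-EF (-1.91) and mut9 (-0.97). RGS5, another such protein, rose with WT-EF (1.52, adjusted p = 0.00607) and mut9 (1.65, 0.00615), with some of its exonic bases shared with another gene on its strand.

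Among 8 tested genes of extracellular cleavage and retention of CXCL12, 1 rose and 6 fell in iLuc, 6 fell in WT-EF, 2 rose and 4 fell in mut9, 3 and 1 in DAF, and 1 and 1 in DAF-mut9. The shares were 87.5%, 75%, 75%, 50% and 25%, beside 41.1%, 28.3%, 14.6%, 7.42% and 3.4% of all tested genes. Of genes with a mean of at least 5 CPM, 60.3%, 44.3%, 21.9%, 12.1% and 5.24% were called. In del22 their median log2 fold change was 0.17. SDC1, a heparan sulfate proteoglycan, fell from 25.4 ± 9.03 CPM in iEF to 0.292 ± 0.0435 in iLuc (-6.44, adjusted p = 3.82e-12) and to 4.97 ± 2.05 in WT-EF (-2.4) and also with mut9 (-1.66). SDC4, of the same family, fell in 5 groups, with -3.09 in iLuc, -2.58 in WT-EF, -1.42 in mut9, -1.13 in DAF and -0.84 in DAF-mut9, and was at -0.79 in del22 (adjusted p = 0.0566). MMP9, a gelatinase that can cleave CXCL12, went from 6.86 ± 0.823 CPM in iEF to 130 ± 103 in DAF (4.02, adjusted p = 6.13e-05) and 37.8 ± 10.9 in mut9 (2.54, 0.0013), and fell to 1.28 ± 0.262 in WT-EF (-2.46, 0.00234); 430 of its exonic bases lie opposite an antisense gene. MMP2, the other gelatinase, fell in iLuc (-3.51) and WT-EF (-0.63, adjusted p = 0.0237).

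Of 8 transcription factors reported for these genes, 2 rose and 4 fell in iLuc, 3 fell in WT-EF, and 1 rose and 3 fell in mut9. These were 75%, 37.5% and 50% of the 8, beside 41.1%, 28.3% and 14.6% of all tested genes and 60.3%, 44.3% and 21.9% of those with at least 5 CPM. Their median log2 fold change was 0.14 with DAF, 0.11 with DAF-mut9 and 0.01 with del22. EPAS1 (HIF-2α), known to raise CXCR4 transcription in hypoxia, fell from 32.2 ± 8.51 CPM in iEF to 0.398 ± 0.254 in iLuc (-6.29, adjusted p = 3.63e-12), 5.19 ± 1.56 in WT-EF (-2.63) and 16.6 ± 7.88 in mut9 (-1). HIF1A, the other hypoxia-inducible α subunit, fell in the same 3 groups (-1.13, -0.89 and -0.54). FOXC1, which acts on CXCR4 and CXCL12 in endothelial and marrow stromal cells, also fell in those 3 groups (-4.68, -1.82 and -1). NRF1, an activator of CXCR4, rose in iLuc (0.55, adjusted p = 0.00295) and was at 0.29 in WT-EF (adjusted p = 0.131) and 0.25 in mut9 (0.278).

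**Figure D5:**
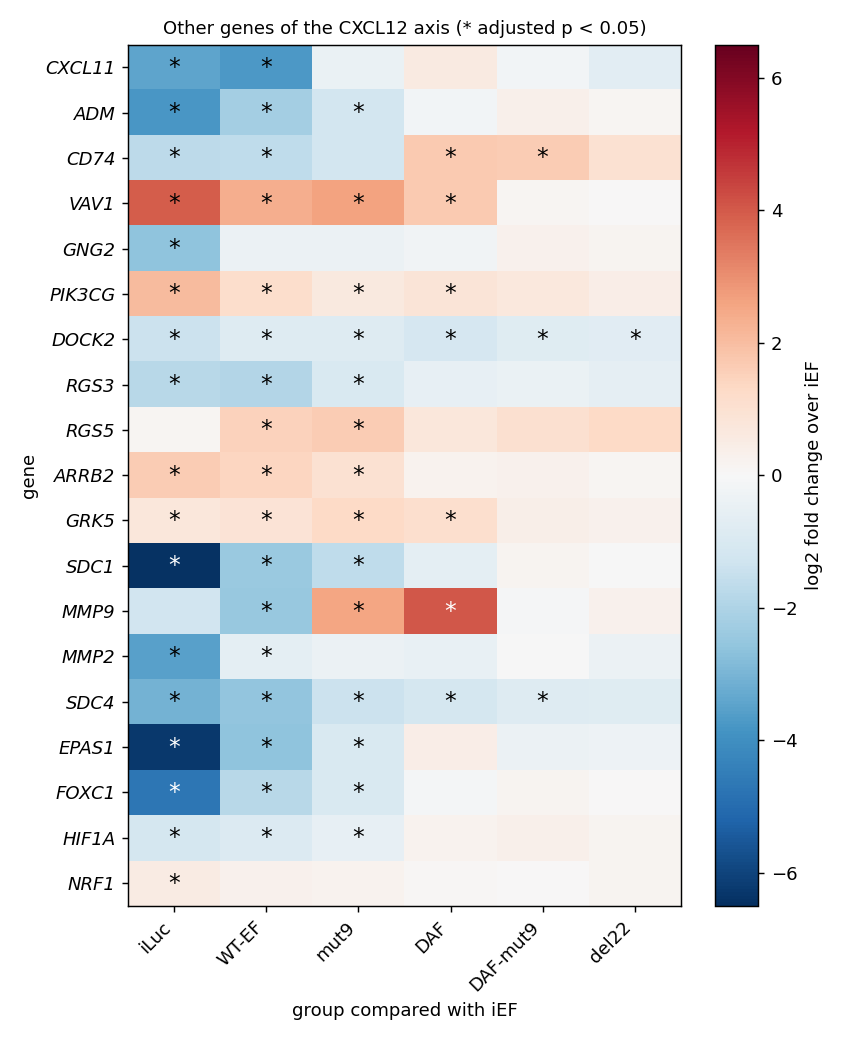
Log2 fold change over iEF (colour) of 19 other genes of the CXCL12 axis in the 6 groups, with an asterisk at adjusted p below 0.05. Most asterisks are in iLuc, WT-EF and mut9, DOCK2 is lower in all 6 groups, and MMP9 is highest in DAF at 4.02.

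Across the 21 libraries, the genes whose log2 CPM followed CXCR4 most closely, of 10778 others with a mean of at least 5 CPM, were PEDS1 (Pearson r = 0.95), ATL1 (0.943), CD93 (0.939), PTPN9 (0.939) and KIF3C (0.936). For ACKR3 they were NAB1 (0.83), FGF2 (0.814), MIER1 (0.805), TNFSF9 (0.801) and RGS2 (0.793). For CXCL12 they were SRPX (0.939), EPB41L4B (0.938), EDNRB (0.936), PERP (0.936) and SHISA2 (0.934). The libraries share groups and replicate sets, so these values describe the order of likeness only. By Spearman correlation, 1, 2 and 1 of the 5 genes stayed among the 5 most alike. With genes of a mean of at least 1 CPM compared, 5, 3 and 1 stayed.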

How the data were processed

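Per the labels and the study's methods, the authors sequenced paired-end libraries, aligned them to hg19 with STAR and counted reads per gene with htseq-count; the annotation release and strand setting were not given in the sources used here. The deposited counts were raw whole numbers (5 htseq summary lines were empty). Another deposited table held the signal of each gene as counts that the authors adjusted for replicate set with ComBat (26325 genes, ACKR3 not among them), used as an alternative on the log2(value per 1e6 + 1) scale. A further table held the authors' own comparisons and was not used.

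The test kept 30549 of 57820 genes, those whose counts averaged 1 or more over the libraries. edgeR 4.0.16 (TMM; quasi-likelihood test; group plus replicate set; all 21 libraries; R 4.3.3) gave two-sided p-values, Benjamini-Hochberg adjusted over all tested genes, with a threshold of 0.05. CPM used TMM-adjusted totals, and log2 CPM a prior count of 2. Alternatives used RLE scaling, DESeq2 1.42.0, limma 3.58.1 on the ComBat values, other filters, no block, only the compared groups, and each library left out in turn. The scripts were tested on simulated data. The pairing of replicate numbers comes from the study's methods, which adjust each set as a batch. Deviations from the group mean correlated at a median of 0.161 for same-numbered libraries and -0.095 for others, and at -0.192 to 0.5 for the 18 pairs with iEF. Deviations within a group cancel out, so the -0.095 largely follows from the 0.161 and is no separate evidence of pairing. The 3 genes and the lists were chosen with earlier results of these data known. Other axis genes were named by a rule, all ligands and receptors and, in each further role, up to 4 called genes with the largest change at a mean of at least 5 CPM. Totals of 32.9 to 46.2 M counts (M for 1e6) limit precision for genes of few counts, such as ACKR3 with WT-EF. Gene positions are from GENCODE lifted to GRCh37.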

Additional observations from a re-analysis of the deposited data

How the results depend on the processing

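Of 911 values of CXCR4, ACKR3 and CXCL12 under the alternatives, 846 were classed as unchanged, and 16 turned in sign, none of them a called value. Unchanged meant the same direction and the same side of the threshold. For CXCR4 in iLuc, DAF, DAF-mut9 and del22 against iEF, it meant the same direction and a shift below the set differences' SD. CXCR4 in WT-EF and mut9 against iEF was classed by the threshold for this count only, and is otherwise given as a description. The cause of the changes was not tested. The CXCR4 difference of iLuc from iEF, given without a test, was -1.32 on ComBat-adjusted values, a scale that understates changes of low genes, beside -2.62. Without the replicate block, ACKR3 against iEF was at -2.24 in DAF, -2.35 in DAF-mut9 and -2.29 in del22, and at -2.62 for WT-EF against iLuc; CXCL12 was at 1.71 for DAF against WT-EF and 1.81 for DAF-mut9 against mut9, and these 6 calls were lost; ACKR3 in DAF against del22 turned to 0.05. The block changed no other call of the 3 genes.

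Leaving out 1 library gave -0.62 to 0.43 for CXCR4 in WT-EF. For ACKR3 against iEF it gave -3.65 to -1.79 in DAF, -2.48 to -1.72 in DAF-mut9 and -2.45 to -1.71 in del22. Between forms, ACKR3 ranged from -3.49 to -2.36 (WT-EF against iLuc), 1.23 to 3.02 (DAF against WT-EF), -0.01 to 1.95 (DAF against mut9), -1.5 to 0.29 (DAF against del22) and -0.21 to 0.18 (DAF-mut9 against del22). CXCL12 ranged from -2.63 to -0.92 (mut9 against iEF), -0.35 to 1.82 (mut9 against WT-EF), 1.55 to 3.21 (WT-EF against iLuc), 1.33 to 2.64 (DAF against WT-EF), 0.37 to 2.09 (DAF against mut9), 1.6 to 3.28 (DAF-mut9 against mut9) and -0.01 to 0.66 (DAF-mut9 against del22).

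With no low-count filter, calls were gained for ACKR3 in DAF-mut9 against mut9 (1.46) and for CXCL12 in mut9 against iEF (-1.4) and WT-EF against iLuc (2.4). That setting lowered edgeR adjusted p-values far at near equal values, as for CXCR4 in mut9 against WT-EF (1.77e-27 beside 0.00325). Calls gained under it carry little weight. With only the compared groups the same 3 were gained (1.54, -1.66 and 2.32), and DESeq2 gained the CXCL12 pair (-1.49 and 2.35) and turned ACKR3 in DAF-mut9 against del22 to 0.01. ComBat-adjusted values gave 0.53 for CXCL12 in DAF against WT-EF, a lost call. The 25 other axis genes called with mut9 were 16 to 26 with 1 library left out, fewest without mut9 replicate 2. The 6 called with DAF-mut9 were 3 without the block, 15 with no filter, 11 with DESeq2 and 1 to 10 with 1 library left out, and the 3 called with del22 were 9 with no filter, 5 with DESeq2 and 0 to 4. Depth limits ACKR3 with WT-EF and mut9 and CXCL12 in iLuc most, at 8, 17 and 7 counts in 3 libraries each.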
